A study of Homo sapiens with 9 samples.

Results

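Double-strand break repair genes are described here across 9 RNA-seq libraries of HEK293, a line of human kidney cells from an embryo. The set holds 48 genes, listed by name for their roles in break signalling, end joining and homologous recombination, and all 48 are among the 35876 gene symbols of the deposited table. The 9 libraries fall into 3 groups of 3 replicates by genotype: CC_Cas9, CC_Cas9_Cre and CC_Cas9_Flpo, called Cas9, Cre and Flpo below. All 3 groups carry Cas9, an RNA-guided nuclease that cuts DNA, so every comparison lies between cells that already have the nuclease. Cre recombines DNA at loxP sites, and Flpo does so at FRT sites. The labels do not explain CC, name no guide RNA or cut site, and give no time or dose. They do not say whether replicates came from separate cultures, so p-values measure the spread between these libraries, which may be technical. The extraction text speaks of livers although every sample is labelled HEK293.

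A broken DNA end is recognised by the MRE11-RAD50-NBN complex and by the Ku dimer, and the kinases ATM, ATR and DNA-PK signal its presence. Most breaks are joined directly by classical end joining, while resection of the ends opens the way to homologous recombination, to which BRCA1 and BRCA2 belong, or to a joining route that uses PARP1 and POLQ. Many recombination genes are transcribed mainly in S and G2 phase, and Ku and PARP1 are abundant in most human cells.

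The libraries differed in depth, with total estimated counts of 213907 for Cre replicate 2, the smallest, and 8833491 for Flpo replicate 1, the largest, and every Cre library was smaller than every Flpo library. A floor of 3 counts corresponded to between 0.479 and 11.2 CPM, the depth-scaled count used throughout, with edgeR's TMM factors applied. Cre replicate 2 reached 3 counts in 25 of the 48 genes, against 39 to 48 in the other libraries. Flpo replicate 2 stood apart from its group, since ACTB took 0.320% of its counts against 3.71% and 3.51% in Flpo replicates 1 and 3. The 12 genes listed as HEK293 markers summed to 605 to 1409.8 CPM in Cas9, 539 to 1116 in Cre and 1605 to 5392 in Flpo, mostly VIM, KRT8 and KRT18, while the kidney factors PAX2 and PAX8 were near 0. The liver list of 10 genes summed to 65.7 to 192, 114 to 239 and 18.5 to 226 CPM, led by CPS1, TF and HP, with ALB seen only in Flpo replicate 2 at 1.28 CPM and FGB at 0 in all libraries. The 6 fibroblast markers summed to 264 to 893 CPM in Cas9, 550.1 to 6484 in Cre and 253 to 327 in Flpo, with the collagen transcript COL1A2 at 3927 CPM in Cre replicate 2. The 7 blood markers summed to 80.2 to 253, 129 to 248 and 40.4 to 171 CPM, nearly all of it LYZ, with CD3E at 0. The 4 markers of epithelial lines summed to 82.2 to 111, 29.9 to 87.2 and 63.6 to 210.4 CPM. The part of these lists in the results below was not tested.

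Between Cre and Flpo, 15 break repair genes passed edgeR's test, which took in 11905 genes and used an adjusted p of 0.05 as its threshold. In the Cre group 6 were higher (MRE11, ATM, DCLRE1C, POLL, POLM and XRCC3) and 9 were lower (MDC1, RNF168, XRCC5, XRCC6, PARP1, RPA1, RPA2, BARD1 and RAD54L). Of all tested genes 20.5% passed, 6.17% higher and 14.3% lower in Cre. The calls were made among 42 genes that passed the filter on low counts, and the other 6 (LIG4, NHEJ1, RAD51B, RAD54B, DNA2 and WRN) were not tested. For 24 of the 42, 8 higher and 16 lower in Cre, the groups did not overlap, where 43.2% of all tested genes did not overlap. The median log2 fold change of the 42 was -0.64 against -0.34 over all tested genes. RAD54L lies below the median of the 42 at its lower bound too, so using that bound could not move the median. Without TMM factors the median of all genes moved to 0.44 and 14 genes passed, 8 higher and 6 lower, when 24.2% of all genes passed. Fold changes are therefore also given relative to the median of all genes, and all 15 genes kept their direction in that fit.

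These calls rested on few libraries, and the count moved with that over all genes. In edgeR's test 0 of the set and 0% of all genes passed without Cre replicate 2, Cre replicate 3 or Flpo replicate 1. With all libraries 21 of the 42 tested genes had an unadjusted p under 0.05, against 39.8% of all genes. The number called was 1 (RPA2) without Flpo replicate 3, when 3.28% of all genes passed, and 7 of 44 tested without Cas9 replicate 2, when 10.02% did. It was 20 of 43 without Flpo replicate 2, against 44.1% of all genes, and 18 of 42 without both Flpo replicate 2 and Cre replicate 2, against 41.2%. DESeq2 called 19 of 48 with all libraries, against 16.1% of all genes. With the log2 library total as a covariate, which does not overlap between Cre and Flpo, edgeR called 0 of the set and 0% of all genes. With every library thinned to the smallest total it called 10 of the 25 genes then tested, all of them among the 15, against 22.3% of all genes.

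**Figure D1:**
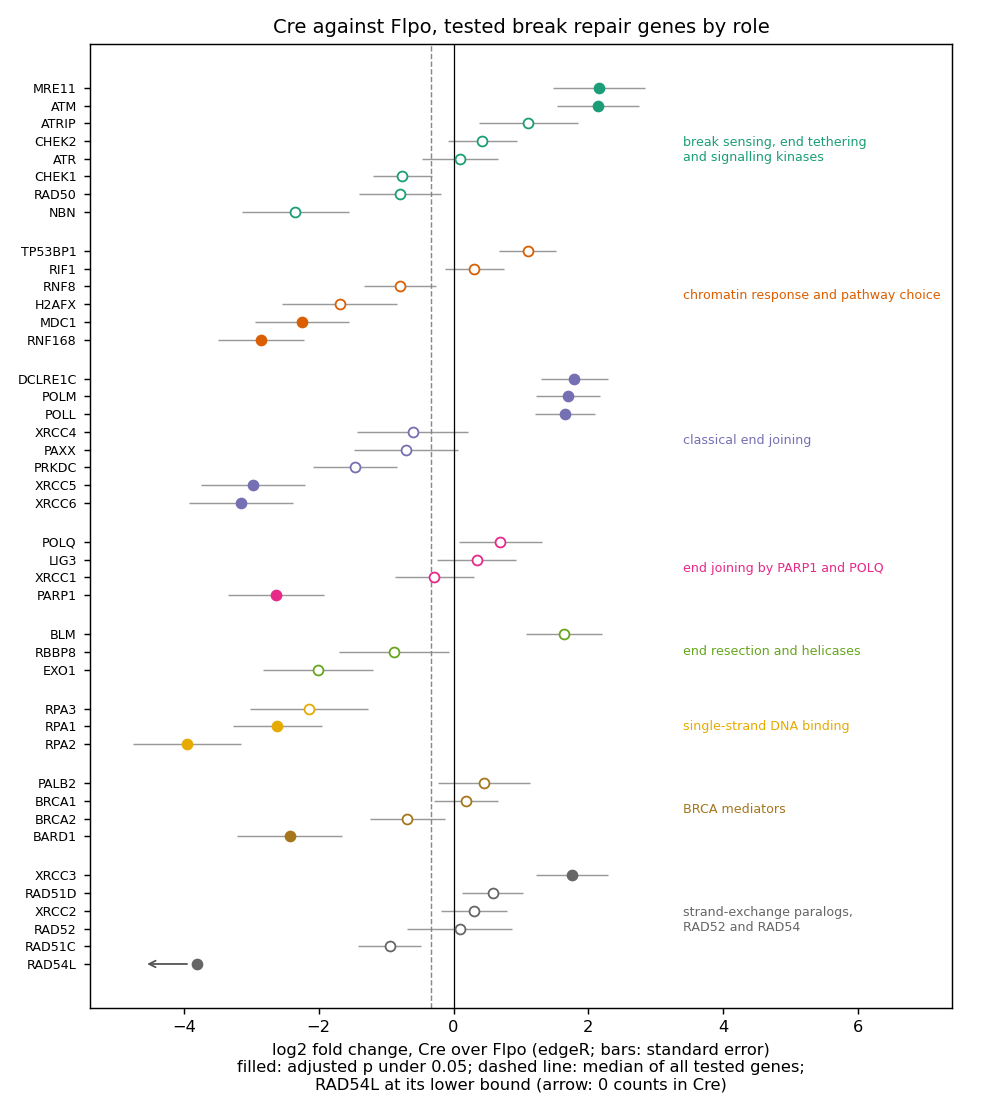
Log2 fold change of Cre over Flpo (horizontal axis) with its standard error for the 42 tested genes, grouped by role, with filled points for an adjusted p under 0.05 and a dashed line at the median of all tested genes (-0.34). The 6 filled points on the right are MRE11, ATM, DCLRE1C, POLM, POLL and XRCC3, and the 9 on the left include both Ku subunits, PARP1, RPA1, RPA2 and RNF168, with RAD54L drawn at its lower bound.

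No break repair gene passed between Cre and Cas9 or between Flpo and Cas9 in edgeR's test. For Cre against Cas9, where 0% of all genes passed, 3 of the 42 genes had an unadjusted p under 0.05 (H2AFX, RPA1 and RAD54L) against 7.38% of all genes, the smallest adjusted p was 0.619, and DESeq2 also called 0. Groups without overlap were seen for 4 of the 42 (DCLRE1C higher, RPA1, BRCA1 and RAD54L lower in Cre), against 9.83% of all genes. For Flpo against Cas9, where 0.227% of all genes passed (0.218% higher and 0.0084% lower in Flpo), 12 of the 42 had an unadjusted p under 0.05 against 20% of all genes. The smallest adjusted p was 0.0590, and DESeq2 called 6 (MRE11, POLL, POLM, RNF168, RPA2 and XRCC6) of 48, against 4.29% of all genes. Without Flpo replicate 2 edgeR called 7 (ATM, MDC1, PARP1, RNF168, RPA2, XRCC5 and XRCC6), when it called 21.3% of all genes. No overlap between groups was seen for 15 of the 42, 7 higher and 8 lower in Flpo, against 25% of all genes. Both comparisons use the same Cas9 libraries.

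Among the sensors and signalling kinases, MRE11 and ATM rose in Cre relative to Flpo and the other 6 genes did not pass. Coordinates are those of GENCODE release 29 on GRCh38. MRE11, the nuclease of the MRE11-RAD50-NBN complex (chromosome 11, 94415578 to 94493908, minus strand), was at 805, 285 and 199 CPM in Cas9, 403, 276 and 866 in Cre and 108, 157 and 81.6 in Flpo, in the order of replicates 1, 2 and 3. All 3 Flpo libraries lay below all other libraries. The log2 fold change of Cre over Flpo was 2.16, and 2.50 against the median gene (standard error 0.68, adjusted p = 0.0423). ATM, the kinase that this complex activates at breaks (chromosome 11, 108222484 to 108369102, plus strand), was at 284, 220.3 and 115 CPM in Cas9, 217, 362 and 419 in Cre and 64.3, 127 and 34.96 in Flpo. The Cre libraries all exceeded the Flpo libraries, and Cas9 replicate 3 fell below Flpo replicate 2. Cre over Flpo was 2.14, and 2.48 against the median gene (standard error 0.60, adjusted p = 0.0301). Before scaling, ATM had 342, 384 and 403 counts in Cas9, 446, 97 and 488 in Cre and 373, 496 and 219 in Flpo. These counts overlapped between groups, but they are not corrected for depth, which was lower in every Cre library than in every Flpo library.

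The partners of MRE11 lay on the other side of 0. RAD50, the coiled-coil ATPase that tethers ends, was at 21.6, 58.5 and 49.97 CPM in Cas9, 31.2, 7.47 and 16.3 in Cre and 35.7, 18.7 and 48.4 in Flpo, with overlapping groups (adjusted p = 0.338 for Cre against Flpo). NBN, which recruits ATM, was at 4.15, 16.6 and 18.6 CPM in Cas9, 4.87, 0 and 7.72 in Cre and 27.8, 12.3 and 38.0 in Flpo. Its Cre values lay below all its Flpo values without passing the test (adjusted p = 0.0526). Per length, the ratio of MRE11 to NBN within a library was 1.45 to 8.65 in Flpo and 7.26 to 131 in Cas9, and it was 55.9 and 75.8 in Cre replicates 1 and 3. Such ratios do not depend on the scaling of a library. ATR, the kinase that answers to single-strand DNA, was at 7.48 to 13.2 CPM in Cas9, 10.7 to 12.9 in Cre and 8.95 to 12.5 in Flpo, a narrow range next to that of ATM. ATRIP, the partner of ATR, was at 11.1 to 21.6 CPM in Cas9, 0 to 29.2 in Cre and 6.55 to 10.4 in Flpo. CHEK1 and CHEK2, the checkpoint kinases downstream of ATR and ATM, were at 63.5 to 155 and 64.2 to 174 CPM over all libraries, and CHEK1 did not overlap between Cre (63.5 to 78.1) and Flpo (79.8 to 155).

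RNF168 had the largest difference among the chromatin genes. RNF168, the ubiquitin ligase that marks chromatin around breaks and thereby recruits 53BP1 (chromosome 3, 196468783 to 196503768, minus strand), was at 29.9, 30.4 and 24.8 CPM in Cas9, 47.3, 14.9 and 30.03 in Cre and 241, 72.1 and 387 in Flpo. The 3 Flpo libraries lay above the other 6, and Flpo replicate 2 was the lowest of them. The log2 difference between Cre and Flpo was -2.85, and -2.51 against the median gene (standard error 0.64, adjusted p = 0.0184). Flpo over Cas9 was 3.04 with a standard error of 0.64 and missed the threshold (adjusted p = 0.0590). RNF8, the ligase that acts just before RNF168, was at 21.6, 17.8 and 24.8 CPM in Cas9, 27.8, 7.47 and 16.3 in Cre and 31.2, 25.8 and 39.4 in Flpo and did not pass. Per length, the ratio of RNF168 to RNF8 was 1.06 to 1.81 in Cas9, 1.78 to 1.89 in Cre replicates 1 and 3 and 2.95 to 10.3 in Flpo.

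MDC1, the scaffold that binds phosphorylated H2AX, also fell in Cre relative to Flpo. MDC1 (chromosome 6, 30699807 to 30717889, minus strand) was at 14.96, 26.4 and 36.3 CPM in Cas9, 28.3, 3.73 and 12.01 in Cre and 73.7, 29.6 and 131 in Flpo. Cre replicate 1 and Flpo replicate 2 came within a few CPM of each other and kept the groups apart only narrowly. Cre over Flpo was -2.25, and -1.91 against the median gene (standard error 0.70, adjusted p = 0.0406), and it was 0.52 with the library total as a covariate. H2AFX, which encodes that histone, was at 23.3, 75.7 and 60.8 CPM in Cas9, 32.2, 0 and 2.57 in Cre and 48.7, 32.97 and 52.5 in Flpo (adjusted p = 0.152). TP53BP1, which encodes 53BP1 and favours end joining, was at 81.95 to 111 CPM in Cas9, 90.1 to 117 in Cre and 40.9 to 57.8 in Flpo. Its Flpo values lay below all others, yet the difference from Cre did not pass (adjusted p = 0.0770). RIF1, the effector of 53BP1, was at 66.2 to 86.1 CPM in Cas9, 41.1 to 72.1 in Cre and 37.2 to 57.6 in Flpo, with overlap between Cre and Flpo.

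Classical end joining divided within itself. The Ku subunits, which bind ends as a dimer, were lower in Cre than in Flpo, whereas the nuclease and the polymerases that prepare ends were higher. XRCC6, which encodes Ku70 (chromosome 22, 41621119 to 41664048, plus strand), was at 126, 204 and 262 CPM in Cas9, 175, 48.5 and 41.2 in Cre and 940.2, 264 and 1189.5 in Flpo. Flpo replicate 2 lay barely above Cas9 replicate 3, and the other Flpo libraries lay far above. Its log2 fold change in Cre against Flpo was -3.15, and -2.81 against the median gene (standard error 0.77, adjusted p = 0.0204). XRCC5, which encodes Ku80 (chromosome 2, 216107464 to 216206303, plus strand), was at 26.6, 126 and 119.6 CPM in Cas9, 61.4, 29.9 and 14.6 in Cre and 301, 101 and 445 in Flpo. All Cre values lay below all Flpo values, and Cre over Flpo was -2.97, and -2.63 against the median gene (standard error 0.77, adjusted p = 0.0238). The ratio of XRCC6 to XRCC5 per length was 3.63 to 4.33 in Flpo, 2.26 to 3.96 in Cre and 2.24 to 6.59 in Cas9, so the ratio overlapped between groups. PRKDC, the catalytic subunit of DNA-PK, was at 35.7, 122 and 138 CPM in Cas9, 76.5, 14.9 and 41.2 in Cre and 164, 107 and 112 in Flpo, with no overlap between Cre and Flpo and no call (adjusted p = 0.101).

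DCLRE1C, which encodes the end-opening nuclease Artemis (chromosome 10, 14897359 to 14954432, minus strand), was at 63.2, 41.9 and 21.99 CPM in Cas9, 65.8, 63.5 and 75.5 in Cre and 18.98, 18.9 and 21.2 in Flpo. Its 3 groups did not overlap, with Cre highest and Flpo lowest, but Cas9 was only narrowly apart from both. Cas9 replicate 1 at 63.15 CPM lay just below Cre replicate 2 at 63.46, which rested on 17 counts. Cas9 replicate 3 at 21.99 CPM lay just above Flpo replicate 3 at 21.23. The log2 difference between Cre and Flpo was 1.79, and 2.13 against the median gene (standard error 0.50, adjusted p = 0.0287). POLL, the gap-filling polymerase lambda (chromosome 10, 101578882 to 101588270, minus strand), was at 49.03, 43.03 and 53.7 CPM in Cas9, 72.1, 70.9 and 48.9 in Cre and 21.9, 21.5 and 17.2 in Flpo. POLM, polymerase mu (chromosome 7, 44072247 to 44082540, minus strand), was at 50.7, 41.9 and 29.1 CPM in Cas9, 57.98, 48.5 and 46.3 in Cre and 18.5, 12.3 and 16.4 in Flpo. Both polymerases were lower in every Flpo library than in any other. For POLL, Cre over Flpo was 1.66, and 1.99 against the median gene (standard error 0.45, adjusted p = 0.0266). For POLM it was 1.70, and 2.04 against the median gene (standard error 0.47, adjusted p = 0.0293).

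The ligation step was thinly measured. LIG4, the ligase of this route, had 0, 5 and 5 counts in Cas9, 0, 0 and 0 in Cre and 8, 1 and 11 in Flpo and was not tested. NHEJ1, which encodes the ligation factor XLF, had no count in any Cre library, and its Flpo level was at least 5.07-fold higher against a floor of 3 counts over the Cre group. XRCC4, the scaffold of the ligase, was at 2.28 to 7.46 CPM in Cas9, 0 to 10.3 in Cre and 4.09 to 16.4 in Flpo. PAXX, a small Ku-binding factor, was at 67.3, 78.6 and 83.95 CPM in Cas9, 89.2, 0 and 26.6 in Cre and 70.9, 40.1 and 93.6 in Flpo, with no call. Per length PAXX stood highest of the set in Cas9, at 94.4 ± 10.5 CPM per kb (SD, n = 3), beside PARP1 at 78.3 ± 36.7 and XRCC6 at 72.9 ± 25.2, neighbours that did not differ beyond their spread. LIG4 was at 0.343 ± 0.343 CPM per kb.

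Of the genes of the PARP1 and POLQ route, PARP1 alone passed. PARP1, which senses nicks and breaks and builds poly(ADP-ribose) (chromosome 1, 226360691 to 226408079, minus strand), was at 217, 235 and 477 CPM in Cas9, 238, 59.7 and 169.9 in Cre and 1053, 439 and 1451 in Flpo. Every Flpo library exceeded every Cre library, and Flpo replicate 2 lay below Cas9 replicate 3. Its log2 fold change in Cre against Flpo was -2.64, and -2.30 against the median gene (standard error 0.71, adjusted p = 0.0265). LIG3 and XRCC1, the ligase and scaffold that act with PARP1, did not pass. LIG3 was at 118 to 227 CPM in Cas9, 156 to 231 in Cre and 71.8 to 301 in Flpo, highest in Flpo replicate 2. XRCC1 was at 22.4 to 45.97 CPM in Cas9, 11.2 to 46.8 in Cre and 20.4 to 40.4 in Flpo. Per length the ratio of PARP1 to XRCC1 was 15.2 to 25.4 in Flpo, 3.59 to 6.94 in Cre and 4.03 to 7.35 in Cas9. POLQ, the polymerase of microhomology-mediated joining, was at 10.6 to 20.8 CPM in Cas9, 11.2 to 28.3 in Cre and 7.34 to 21.7 in Flpo, with overlap throughout.

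No resection gene passed in edgeR's test. BLM, a helicase that acts with DNA2 in resection, was the most abundant, at 104, 65.98 and 49.7 CPM in Cas9, 68.7, 123 and 164 in Cre and 29.7, 64.7 and 19.96 in Flpo. All Cre values lay above all Flpo values (adjusted p = 0.0555). EXO1, the resection exonuclease, lay the other way, at 3.32 to 9.99 CPM in Cas9, 0 to 5.36 in Cre and 5.62 to 24.4 in Flpo (adjusted p = 0.0899). RBBP8, which encodes the MRE11 cofactor CtIP, was at 3.32 to 13.1 CPM in Cas9, 0.858 to 11.2 in Cre and 8.43 to 14.5 in Flpo. DNA2 and WRN, both helicases and nucleases, were under the filter: DNA2 was at 2.49 to 5.16 CPM in Cas9, 0 to 2.44 in Cre and 5.37 to 6.56 in Flpo, and WRN was at 0.858 to 11.2 CPM over all libraries.

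The RPA trimer coats the single-strand DNA that resection leaves. RPA2, the subunit that is phosphorylated after damage (chromosome 1, 27891524 to 27914746, minus strand), was at 6.65, 18.4 and 31.4 CPM in Cas9, 19.98, 3.73 and 12.01 in Cre and 224, 58.02 and 341 in Flpo. All 3 Flpo libraries lay above the other 6. Cre over Flpo was -3.95, and -3.61 against the median gene (standard error 0.80, adjusted p = 0.0167). Flpo over Cas9 was 3.43 with a standard error of 0.76 and did not pass (adjusted p = 0.0633). RPA1, the large DNA-binding subunit (chromosome 17, 1829702 to 1900082, plus strand), was at 25.8, 53.9 and 52.8 CPM in Cas9, 23.9, 3.73 and 7.72 in Cre and 86.1, 42.4 and 117 in Flpo. Its Cre values lay below all others, and Cre over Flpo was -2.61, and -2.27 against the median gene (standard error 0.66, adjusted p = 0.0221). RPA3, the smallest subunit, was at 6.65, 77.5 and 71.96 CPM in Cas9, 39.95, 7.47 and 4.29 in Cre and 101, 52.9 and 98.98 in Flpo and did not pass (adjusted p = 0.0897). Per length the ratio of RPA2 to RPA1 was 3.39 to 7.25 in Flpo and 0.639 to 1.47 in Cas9, with 2.07 and 3.85 in Cre replicates 1 and 3, so Flpo and Cas9 did not overlap.

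**Figure D2:**
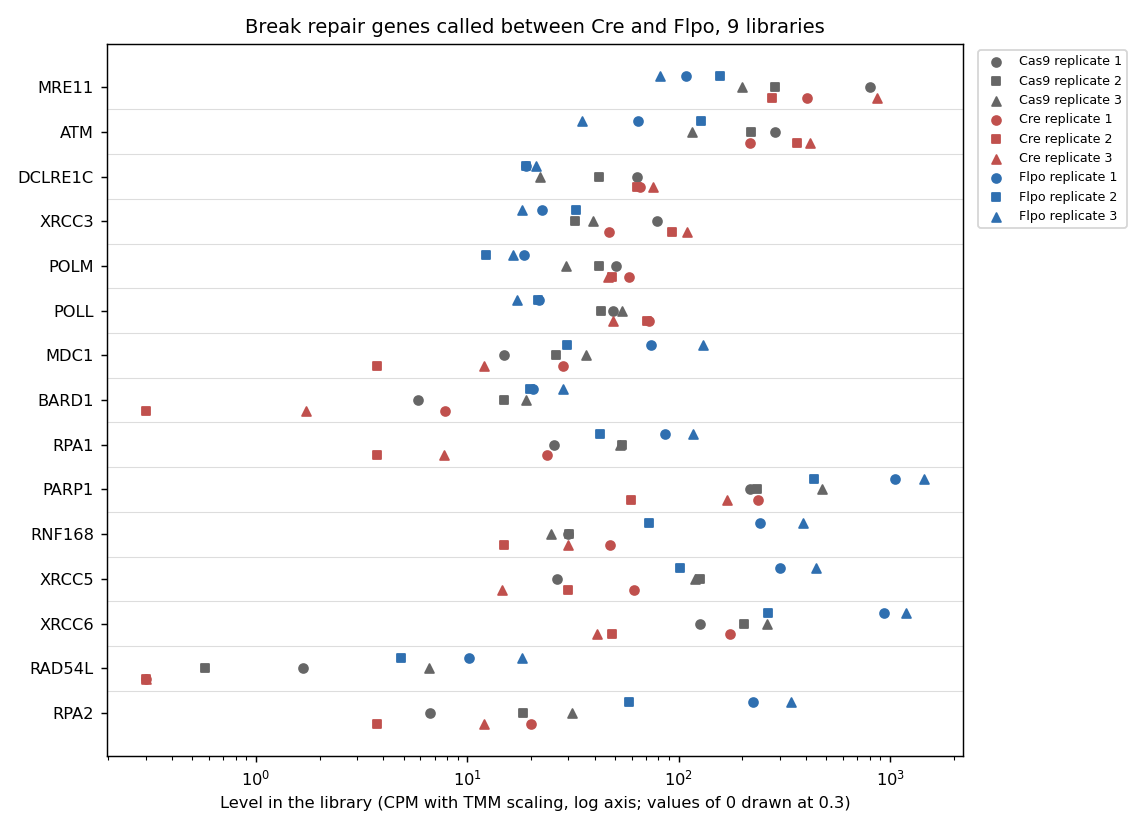
Level in each of the 9 libraries (CPM with TMM scaling, log axis, values of 0 drawn at 0.3) of the 15 genes called between Cre and Flpo, with colour for the group and shape for the replicate. Flpo points lie left of the Cre points in the top 6 rows, from MRE11 to POLL, and right of them in the other 9, where Flpo replicate 2 (blue squares) is the Flpo library nearest to the Cre points.

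Among the BRCA genes, BARD1 fell in Cre relative to Flpo while its partner BRCA1 did not pass. BRCA1, which promotes resection and recombination, was at 348, 285 and 304 CPM in Cas9, 253, 198 and 264 in Cre and 244, 248 and 137 in Flpo. It was the 1 tested gene of the set whose Cas9 libraries all lay above both other groups, as did 1.29% of all tested genes, and its adjusted p was 0.739 for Cre and 0.511 for Flpo against Cas9. BARD1, the other subunit of the BRCA1 ubiquitin ligase (chromosome 2, 214725646 to 214809711, minus strand), was at 5.82, 14.9 and 18.8 CPM in Cas9, 7.80, 0 and 1.72 in Cre and 20.4, 19.7 and 28.4 in Flpo. The Flpo libraries lay above the other 6, and Cre over Flpo was -2.43, and -2.09 against the median gene (standard error 0.78, adjusted p = 0.0436). BRCA2, which loads the strand-exchange filament, was at 16.6 to 31.98 CPM in Cas9, 7.47 to 38.6 in Cre and 35.01 to 47.3 in Flpo. PALB2, which bridges BRCA1 and BRCA2, was at 2.49 to 10.3 CPM over all libraries, with no call.

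In the last group, XRCC3 rose and RAD54L fell in Cre against Flpo. XRCC3, one of the paralogs that support strand exchange (chromosome 14, 103697609 to 103715504, minus strand), was at 78.9, 32.1 and 39.1 CPM in Cas9, 46.8, 93.3 and 109.8 in Cre and 22.4, 32.7 and 18.2 in Flpo. All Cre values exceeded all Flpo values, and Cre over Flpo was 1.76, and 2.10 against the median gene (standard error 0.54, adjusted p = 0.0381). RAD54L, a motor protein that drives strand invasion (chromosome 1, 46247688 to 46278473, plus strand), had 2, 1 and 23 counts in Cas9, 0, 0 and 0 in Cre and 59, 19 and 113 in Flpo. It was at least 13.9-fold lower in Cre than in Flpo against a floor of 3 counts over the Cre group (adjusted p = 0.0227). Without a count in Cre, RAD54L passed the filter on low counts only through Flpo and Cas9 libraries. Its place among the tested genes thus rests on the groups where it is higher. RAD51C, a paralog that forms a complex with XRCC3, was at 44.9 to 57.4 CPM in Cas9, 25.8 to 55.99 in Cre and 65.4 to 103 in Flpo, without overlap between Flpo and the rest and without a call (adjusted p = 0.149). XRCC2 was the most abundant of this group by its mean over all libraries, at 226, 136 and 80.2 CPM in Cas9, 129, 82.1 and 135 in Cre and 106, 98.4 and 79.02 in Flpo. RAD51D, which binds XRCC2, was at 63.5 to 153 CPM over all libraries, and both overlapped between Cre and Flpo. RAD51B, RAD52 and RAD54B stayed at or below 10.9 CPM in every library.

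Shares of the counts of the 48 genes do not depend on library scaling, but each share depends on the counts of the other members. A share can therefore fall where other members rise. For BRCA1 the log2 fold change of Cre over Flpo was 0.19 and did not pass edgeR's test (adjusted p = 0.779). MRE11 took 12.5% ± 8.51 in Cas9, 16.5% ± 6.83 in Cre and 2.89% ± 1.86 in Flpo (SD, n = 3 each). ATM took 6.18% ± 2.24 in Cas9, 11.5% ± 4.08 in Cre and 2.00% ± 1.80 in Flpo, and BRCA1 took 9.44% ± 0.279 in Cas9, 8.10% ± 0.584 in Cre and 5.12% ± 2.74 in Flpo. PARP1 took 9.54% ± 4.87 in Cas9, 5.08% ± 2.71 in Cre and 20.5% ± 5.93 in Flpo, and XRCC6 took 6.10% ± 2.43 in Cas9, 3.02% ± 2.48 in Cre and 16.3% ± 6.87 in Flpo. PARP1 had the largest share in each Flpo library, and MRE11 had it in Cre replicates 1 and 3 and ATM in Cre replicate 2. In Cas9 the leading gene differed by library, with MRE11 first in replicate 1, BRCA1 in replicate 2 and PARP1 in replicate 3. The 48 genes together held 0.294 to 0.439% of counts in Cas9, 0.294 to 0.465% in Cre and 0.246 to 0.421% in Flpo, with overlapping ranges.

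**Figure D3:**
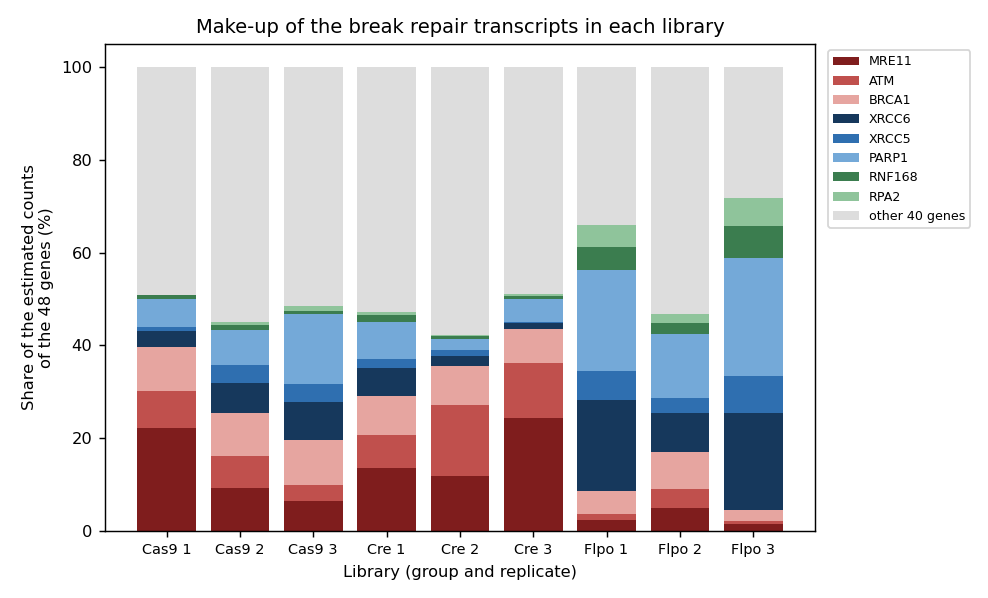
Share of the estimated counts of the 48 genes (%) taken by 8 of them in each library, with the other 40 in grey. MRE11 (dark red) takes less of the bar in every Flpo library than in any other library, ATM and BRCA1 overlap between groups through Flpo replicate 2, and XRCC6, XRCC5, PARP1, RNF168 and RPA2 (blues and greens) together take most of the bar in Flpo replicates 1 and 3, with Flpo replicate 2 between.

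The direction of the difference ran with how much repeated sequence a gene's annotated transcripts hold. The repeated share is the percentage of 24-base words in any GENCODE transcript of a gene that also occur in transcripts of at least 10 other genes. Its median was 1.68% in the 6 genes higher in Cre, 0.0482% in the 9 lower and 0.858% in the 27 tested genes that were not called, against 1.26% over all tested genes. MRE11 had 5.24% and ATM 4.23%, and XRCC6, RPA2 and RAD54L had 0%. RNF168 stood apart from the other lower genes, at 2.47%. Across the 42 genes Spearman's rho of repeated share with the log2 fold change was 0.60 for Cre over Flpo, 0.56 for Cre over Cas9 and -0.57 for Flpo over Cas9. Over 11867 genes the same values were 0.41, 0.53 and -0.20. These are descriptions across genes of the same 9 libraries, whose depths differ, and genes are not independent replicates. Counted on 1 transcript per gene, rho across the 42 for Cre over Flpo was 0.25, and with transcript length it was 0.18. With the number of annotated transcripts it was 0.40 across the 42 and 0.03 over 11873 genes, and the median number was 17.5 in the 6 genes higher in Cre and 9 in the 9 lower. The part of repeated sequence in the calls was not tested.

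**Figure D4:**
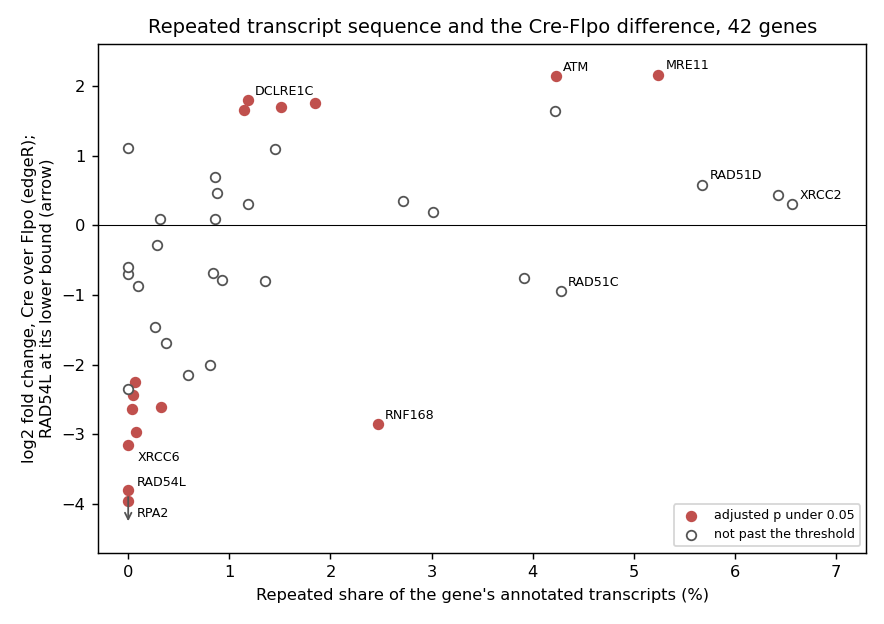
Repeated share of a gene's annotated transcripts (horizontal axis, %) against the log2 fold change of Cre over Flpo (vertical axis) for the 42 tested genes, filled where the adjusted p was under 0.05. Filled points below 0 sit at the left edge apart from RNF168 at 2.47%, MRE11 and ATM sit at the upper right, and RAD54L is drawn at its lower bound.

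Reads from overlapping genes could not be separated by strand, since the use of strand is not stated. An exon of another annotated gene overlapped 29 of the 48 genes and 10 of the 15 called ones, whose counts are uncertain in that respect. These included every called gene higher in Cre: MRE11 (ANKRD49), ATM (NPAT and C11orf65), DCLRE1C (SUV39H2), POLL (DPCD), POLM (MIR6838) and XRCC3 (KLC1). Of the lower genes they included MDC1 (MDC1-AS1), RNF168 (AC117490.2), RPA1 (SMYD4) and RAD54L (LRRC41). XRCC5, XRCC6, PARP1, RPA2 and BARD1, all lower in Cre, had no such overlap. XRCC6 has 5 named pseudogenes in the table with 36.0 counts over the 9 libraries, against 15781 for XRCC6 itself.

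Promoter sequence is shown, as examples, for 3 of the called genes lower in Cre than in Flpo (XRCC6, PARP1 and RNF168) and 3 of those higher (MRE11, DCLRE1C and XRCC3). Each line gives the 250 bases before the RefSeq start (GRCh38.p14), 5′ to 3′ on the gene's strand, with capitals for matches on either strand to E2F (TTTNNCGC), CHR (TTTGAA) or the CCAAT box.
XRCC6: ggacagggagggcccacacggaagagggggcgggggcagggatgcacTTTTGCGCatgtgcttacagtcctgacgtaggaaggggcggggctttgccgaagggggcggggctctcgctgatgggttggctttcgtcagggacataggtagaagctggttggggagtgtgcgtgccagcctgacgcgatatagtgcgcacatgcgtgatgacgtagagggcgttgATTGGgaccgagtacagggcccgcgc
PARP1: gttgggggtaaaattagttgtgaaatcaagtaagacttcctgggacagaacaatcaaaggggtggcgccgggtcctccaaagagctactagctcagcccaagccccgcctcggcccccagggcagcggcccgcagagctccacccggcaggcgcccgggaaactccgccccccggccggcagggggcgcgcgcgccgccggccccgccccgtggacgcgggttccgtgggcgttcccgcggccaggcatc
RNF168: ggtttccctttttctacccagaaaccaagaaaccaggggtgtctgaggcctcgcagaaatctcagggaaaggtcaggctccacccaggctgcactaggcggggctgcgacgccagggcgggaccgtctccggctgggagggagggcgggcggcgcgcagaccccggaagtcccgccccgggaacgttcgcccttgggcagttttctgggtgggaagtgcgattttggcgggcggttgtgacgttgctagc
MRE11: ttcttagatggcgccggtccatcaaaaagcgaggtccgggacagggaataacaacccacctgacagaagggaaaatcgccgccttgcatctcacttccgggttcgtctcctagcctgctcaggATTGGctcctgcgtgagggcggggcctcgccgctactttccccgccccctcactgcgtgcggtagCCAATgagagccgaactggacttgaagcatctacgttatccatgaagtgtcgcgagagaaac
DCLRE1C: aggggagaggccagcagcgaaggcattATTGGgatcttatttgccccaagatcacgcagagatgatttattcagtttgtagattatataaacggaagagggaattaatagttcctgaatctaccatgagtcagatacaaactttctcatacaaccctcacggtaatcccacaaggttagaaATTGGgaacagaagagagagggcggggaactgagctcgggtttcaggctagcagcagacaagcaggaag
XRCC3: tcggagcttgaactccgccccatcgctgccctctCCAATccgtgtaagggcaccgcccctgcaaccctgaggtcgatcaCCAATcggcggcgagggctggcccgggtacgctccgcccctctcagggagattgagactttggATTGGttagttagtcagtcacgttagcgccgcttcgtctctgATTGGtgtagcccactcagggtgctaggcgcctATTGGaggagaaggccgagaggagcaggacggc
These windows are chr22:41621045-41621294 for XRCC6 (plus strand), and on the minus strand chr1:226408094-226408343 for PARP1, chr3:196503769-196504018 for RNF168, chr11:94493845-94494094 for MRE11, chr10:14954433-14954682 for DCLRE1C and chr14:103715452-103715701 for XRCC3. PARP1 and RNF168 held none of the 3 motifs in these letters, and XRCC3 held 5 CCAAT matches. Of the matched called genes not shown, POLL and BARD1 held 0 CCAAT matches, ATM, RPA1 and RAD54L held 1, and POLM and MDC1 held 2. CCAAT was found in 5 of the 6 promoters of genes higher in Cre and in 4 of the 7 matched promoters of genes lower in Cre. It was found in 18 of the 39 matched promoters of the whole set (46.2%) and in 33.0% of 27305 promoters of the same length. The E2F letters were found in 0 of 6 and 1 of 7 against 5.93%, and the CHR letters in 1 of 6 and 1 of 7 against 13.6%. The RefSeq table matched 39 of the 48 genes. A match is a description of letters and not a bound site.

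The wider pathway was represented by 84 further genes in the table, among them Fanconi anaemia, checkpoint clamp and shieldin genes, of which 75 were tested. Between Cre and Flpo 15 of the 75 passed, 3 higher and 12 lower in Cre, a share of 20% against 20.5% of all genes. Their median log2 fold change was -0.56. RHNO1, a partner of the checkpoint clamp, was at 4.15, 10.9 and 18.8 CPM in Cas9, 5.36, 7.47 and 3.43 in Cre and 223, 65.9 and 268 in Flpo. It was the 1 gene of the 75 that passed between Flpo and Cas9, where 0.227% of all genes did. RHNO1 was higher in Flpo by 3.99 on the log2 scale (standard error 0.68, adjusted p = 0.0362), and Cre over Flpo was -5.21 (adjusted p = 0.0167). KAT5, the acetyltransferase that activates ATM, was at 0.831 to 9.42 CPM in Cas9, 1.72 to 3.73 in Cre and 7.16 to 56.8 in Flpo, and Cre over Flpo was -3.97 (adjusted p = 0.0236). No gene of the 75 passed between Cre and Cas9 in edgeR's test. An unadjusted p under 0.05 was seen for 5 of the 75, against 7.38% of all genes.

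Genes of DNA replication and mitosis were measured beside the set. Of 19 tested proliferation genes 13 passed as lower in Cre than in Flpo and 0 as higher, against 14.3% and 6.17% of all genes. The median log2 fold change of the 19 was -2.92, against -0.34 over all tested genes. None of the 19 passed in the other comparisons in edgeR's test. An unadjusted p under 0.05 was seen for 1 in Cre and 10 in Flpo against Cas9, beside 7.38% and 20% of all genes. The list summed to 1436 to 2723 CPM in Cas9, 351 to 1861 in Cre and 2118 to 4856 in Flpo, so Cre and Flpo did not overlap. In such bulk libraries fewer cycling cells and less RNA per cell cannot be told apart. The part of proliferation in the break repair results was not tested.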

How the data were processed

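RNA was prepared with TRIzol and TruSeq libraries per the labels' protocols. The authors deposited 1 table of estimated counts per gene symbol, which is not normalized, and 48.7% to 60.8% of the values above 0 in a library are not whole. Salmon 0.14.1 and hg38 are named, with no role, per the submitters' processing notes; annotation and use of strand are not given in the sources used here. Estimated counts were rounded and tested with edgeR 4.0.16 (quasi-likelihood, TMM, filterByExpr with a minimum count of 10, R 4.3.3) in 1 fit of all 9 libraries, with Benjamini-Hochberg adjustment over 11905 genes and a threshold of 0.05. The test was checked on counts simulated for Flpo against Cas9, with 200 of 11905 genes changed 8-fold. It called 195 of them at a dispersion (edgeR's measure of spread between libraries) of 0.05 and 118 at the dispersion estimated from these data. It also called 8 unchanged genes each time. A gene not called against Cas9 may therefore still differ. DESeq2 1.42.0, other filters and scalings, thinning, a depth covariate, a replicate block and leaving out each library were alternatives. Leaving out Cre replicate 2 together with Flpo replicate 2 was chosen after seeing the data. All members are described by role, with values per library for those called and the most abundant of each role. Some members whose groups stand apart (TP53BP1, RAD51C and DNA2) are given as ranges. The members and lists were chosen with earlier results of these data known. Floors of 3 counts cover counting error only. Lengths, overlaps and coordinates come from GENCODE release 29.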

Additional observations from a re-analysis of the deposited data

Results flagged for a closer look

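The 15 break repair genes that passed between Cre and Flpo in edgeR's test are listed because the recombinase groups differed from each other by a direct test, while 0 passed for either group against Cas9. The same contrast held over the whole table, where 20.5% of all genes passed between Cre and Flpo, 0% between Cre and Cas9 and 0.227% between Flpo and Cas9. Every Cre library was smaller than every Flpo library, so depth and group cannot be told apart here. The covariate and thinning fits do not separate the 2, and the part of depth in the result was not tested.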

How the results depend on the processing

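For Cre against Flpo the 15 called genes became 8 with the replicate block, 1 higher (ATM) and 7 lower, and 0 with the log2 library total as a covariate, when 13.2% and 0% of all genes passed, and leaving out 1 library gave 0 to 20. The same replicate numbers did not deviate together in every pair, with mean correlations of -0.33, -0.09 and 0.12, so the numbers were not taken to pair the libraries. MDC1 turned from -2.25 to 0.52 with the covariate. For Flpo against Cas9 the 0 called genes became 2 with no filter on low counts, 6 with DESeq2 and 7 with Cre replicate 2 and Flpo replicate 2 both left out, when 4.605%, 4.29% and 23.8% of all genes passed, and leaving out 1 library gave 0 to 7. For Cre against Cas9 the count was 0 in all alternatives run. The cause was not tested. Depth limits Cre replicate 2 most, where 3 counts correspond to 11.2 CPM.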
